A study of Mus musculus with 18 samples.

Results

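The Ifit genes (interferon-induced protein with tetratricopeptide repeats) were followed through B16F10 tumors that had been injected with a STING agonist, either free or loaded on extracellular vesicles. The family was taken by name as Ifit1, Ifit1bl1, Ifit2, Ifit3 and Ifit3b, 5 of the 50600 genes in the deposited table, and all 5 passed the filter on low counts that left 16927 genes for testing. The rule for members used no measured value, although earlier results of these data were known when they were chosen. RNA was sequenced from whole tumors of C57BL/6 mice, females of 5 to 6 weeks when purchased, that carried B16F10 cells under the skin of the right flank. B16F10 is a single mouse melanoma line, so the tumor cells of all 18 tumors come from the same line. CDN2 is the cyclic dinucleotide that the labels call CL656, and exoCDN2 is CDN2 on EVs made by HEK293 cells that carry extra PTGFRN, a surface protein of such vesicles. After 1 IT dose there were PBS, unloaded EVs, exoCDN2 (0.1 µg of CDN2), CDN2 (20 µg) and CDN2 (100 µg), and after 2 doses, 3 days apart, there were PBS, exoCDN2 (0.1 µg), CDN2 (20 µg) and a further CDN2 group whose labels give no amount. Each of these 9 groups held 2 tumors, collected 24 h after the last dose. A 2-dose group of unloaded EVs was not analysed here.

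IFIT proteins are among the classical products of type I IFN signaling. CDNs bind STING, which activates TBK1 and IRF3, and the IFN-β that follows acts through its receptor to form the complex ISGF3, which binds the IFN-stimulated response element (ISRE) of its target genes. IRF3 can also bind such elements directly. IFIT1 binds RNA whose cap lacks the methyl group that marks a cell's own mRNA and blocks its translation. In human cells IFIT1, IFIT2 and IFIT3 can form a complex, and IFIT2 is also known for promoting cell death. Mouse Ifit3b is a close copy of Ifit3, and Ifit1bl1 is a less close relative of Ifit1 whose function is not well described.

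The 5 genes lay within 99.3 kb of chromosome 19 (GRCm38, GENCODE M21 gene limits). In order along the chromosome these were Ifit2 (chr19:34550694-34576419, plus strand), Ifit3 (chr19:34583531-34588731, plus), Ifit1bl1 (chr19:34592891-34601956, minus), Ifit3b (chr19:34607970-34613401, plus) and Ifit1 (chr19:34640871-34650009, plus). A further relative, Ifit1bl2, lies between Ifit3b and Ifit1 and is treated here as a neighbour. The coding sequences of Ifit3 and Ifit3b were identical at 1198 of 1209 bases (99.1%), whereas those of Ifit1 and Ifit1bl1 were identical at 77.3% of aligned bases. The other pairs of members lay between 60.6% and 66.8%.

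The promoters of the 5 members are shown because the ISRE is the element through which the pathway acts, and because they differ in it. Each window runs from 250 bases before to 50 after the RefSeq start site (GRCm38.p6), 5′ to 3′ on the strand of the gene. Capitals mark every match to the ISRE core GAAANNGAAA or its reverse complement TTTCNNTTTC, extended where the longer form GAAANNGAAACT or AGTTTCNNTTTC was present. The windows are chr19:34640639-34640938 for Ifit1, chr19:34583279-34583578 for Ifit3, chr19:34607707-34608006 for Ifit3b, chr19:34601919-34602218 for Ifit1bl1 on the minus strand and chr19:34550444-34550743 for Ifit2. For Ifit1bl1 and Ifit2 the window nearest the gene model's start was taken of the pair that RefSeq lists.
Ifit1: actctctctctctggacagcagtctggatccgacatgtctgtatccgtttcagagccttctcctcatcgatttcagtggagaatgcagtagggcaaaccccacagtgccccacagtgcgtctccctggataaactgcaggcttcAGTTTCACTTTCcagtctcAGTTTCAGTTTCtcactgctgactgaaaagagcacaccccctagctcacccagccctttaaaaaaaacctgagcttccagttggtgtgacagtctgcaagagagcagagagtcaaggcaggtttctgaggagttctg
Ifit3: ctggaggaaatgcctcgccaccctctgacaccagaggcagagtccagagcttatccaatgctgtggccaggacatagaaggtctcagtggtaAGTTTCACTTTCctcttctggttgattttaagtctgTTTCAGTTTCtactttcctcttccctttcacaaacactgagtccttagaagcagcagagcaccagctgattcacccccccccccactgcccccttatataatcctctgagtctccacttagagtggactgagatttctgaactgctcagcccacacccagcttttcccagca
Ifit3b: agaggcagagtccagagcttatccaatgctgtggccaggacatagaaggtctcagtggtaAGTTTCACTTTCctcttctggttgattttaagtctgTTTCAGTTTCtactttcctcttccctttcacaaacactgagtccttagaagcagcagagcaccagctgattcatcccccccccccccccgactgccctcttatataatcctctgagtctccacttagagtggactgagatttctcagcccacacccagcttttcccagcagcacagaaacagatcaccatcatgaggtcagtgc
Ifit1bl1: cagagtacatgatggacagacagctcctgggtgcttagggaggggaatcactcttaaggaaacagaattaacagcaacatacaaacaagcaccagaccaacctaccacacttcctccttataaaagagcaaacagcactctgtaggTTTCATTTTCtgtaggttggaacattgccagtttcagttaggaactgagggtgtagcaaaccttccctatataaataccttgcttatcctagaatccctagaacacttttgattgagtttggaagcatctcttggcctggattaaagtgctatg
Ifit2: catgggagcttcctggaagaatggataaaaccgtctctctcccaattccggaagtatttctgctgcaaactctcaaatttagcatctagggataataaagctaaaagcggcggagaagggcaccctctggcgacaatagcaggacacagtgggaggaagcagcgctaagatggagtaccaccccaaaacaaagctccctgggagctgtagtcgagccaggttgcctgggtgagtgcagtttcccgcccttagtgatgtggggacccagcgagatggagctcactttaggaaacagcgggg
The Ifit1 window held 2 core matches, at 104 to 95 and 85 to 76 bases before the start site, and both were of the longer form. The Ifit3 window also held 2, at 156 to 147 and 122 to 113 bases, of which the first was of the longer form. In Ifit3b the same letters stood at 188 to 179 and 154 to 145 bases. The Ifit1bl1 window held 1 core match at 104 to 95 bases and none of the longer form. No core match was in either Ifit2 window, while the one printed held 1 match to TTCNNNGAA, the GAS element of IFN-γ target genes, at 241 to 233 bases. Over all 32851 mouse promoter windows, 3.44% held the ISRE core, 0.271% the longer form and 8.3% the GAS letters. A match is a description of the letters only, and the absence of one in 300 bases says nothing about elements elsewhere.

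The libraries held between 21608895 and 65983630 expected counts, the lowest being CDN2 (20 µg) 2-dose tumor 1. Markers of melanocytes were present in every group (Mlana, Pmel, Tyr, Tyrp1, Dct, Sox10 and Mitf, none at 0 in both tumors of a group). Their summed level lay between 19913 and 25110 CPM (counts scaled to a common library size) in 14 tumors, but at 15066 and 16212 in the 2-dose exoCDN2 tumors and at 7409 and 12884 in the 2-dose CDN2 (20 µg) tumors. This last pair stood apart from the rest. They differed from each other by over 2-fold in 28.2% of genes, against 5.35% to 13.9% in the other groups, and their 4 skeletal muscle markers summed to 3367 and 1646 CPM, against 3.65 to 436 elsewhere. In RNA from a whole tumor, fewer cells of a type and less RNA per cell cannot be told apart.

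Family members were expressed in PBS-injected tumors. Levels below are TMM-scaled CPM of each tumor, in the order tumor 1 and tumor 2. After 1 dose of PBS, Ifit2 stood at 77.8 and 82.8, Ifit3 at 66.4 and 69.2, Ifit1 at 27.9 and 27.4, Ifit3b at 19 and 17.2, and Ifit1bl1 at 1.05 and 1.07. The pairs of tumors were close, with SDs of 3.53 CPM or less. Per kb of exon, which allows genes to be compared, Ifit3 had the highest mean level (38.9 CPM per kb, rank 1231 of 14579 protein-coding genes), followed by Ifit2 (20.5), Ifit1 (10.4), Ifit3b (9.05) and Ifit1bl1 (0.469). The tumors of neighbours in this order did not overlap, and Ifit1 and Ifit3b were the closest pair.

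Unloaded EVs left the family without a called change. Ifit1 was 55.4 and 14.3 CPM after unloaded EVs, Ifit2 98.5 and 64.1, Ifit3 69.4 and 34.7, Ifit3b 17.7 and 7.87, and Ifit1bl1 5.23 and 0.80. In each gene the tumors of this group lay on both sides of the PBS values or reached into them, and tumor 1 was the higher one for all 5 members. A gene was called changed at a Benjamini-Hochberg adjusted p under 0.05 in edgeR's quasi-likelihood test together with a ratio over 2. By that rule 0 of 5 members were called, as were 0% of all tested genes in either direction. DESeq2 also called 0, and 1 member, Ifit1bl1, had an unadjusted p under 0.05 in edgeR (log2 fold change 1.52, adjusted p = 1). Without EV tumor 1 that value was -0.40 and the value of Ifit1 went from 0.34 to -0.95, so the direction of both rested on that tumor.

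All 5 members rose after 1 dose of CDN2 in either form. Ifit1 was 1177 and 1122 CPM in exoCDN2 tumors, 934 and 1616 in CDN2 (20 µg) tumors and 1719 and 1418 in CDN2 (100 µg) tumors. These 6 tumors were all far above the 27.4 to 27.9 CPM of PBS. Relative to PBS, Ifit1 was 41.6-fold higher with exoCDN2 (log2 fold change 5.38 ± 0.564 SE, adjusted p = 2.3e-04), 46.1-fold with CDN2 (20 µg) (5.53 ± 0.568, adjusted p = 1.9e-04) and 56.8-fold with CDN2 (100 µg) (5.83 ± 0.576, adjusted p = 1.9e-04).

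Ifit3, whose human counterpart binds IFIT1, was 1352 and 1405 CPM after exoCDN2, 1403 and 1918 after CDN2 (20 µg) and 1583 and 1343 after CDN2 (100 µg). The treated groups overlapped one another and none reached down to PBS. The rise over PBS was 20.3-fold, 24.5-fold and 21.6-fold in that order, with log2 fold changes of 4.35 ± 0.336, 4.61 ± 0.341 and 4.43 ± 0.338 (adjusted p = 3.1e-05, 2.4e-05 and 4.2e-05). Its copy Ifit3b was 395 and 402, 444 and 565, and 434 and 376 CPM in the same groups, which was 22-fold, 27.9-fold and 22.4-fold above PBS (adjusted p = 4.0e-05, 2.8e-05 and 4.9e-05). Ifit3 was per kb the most abundant member in all 3 groups, and with exoCDN2 its mean of 790 CPM per kb placed it at rank 35 of 14579 protein-coding genes.

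Ifit2 was 995 and 1286 CPM after exoCDN2, 1491 and 2342 after CDN2 (20 µg) and 1214 and 1045 after CDN2 (100 µg). Both CDN2 (20 µg) tumors were above the other 4. Its folds over PBS, 14.2, 23.9 and 14.1 (log2 3.83 ± 0.422, 4.58 ± 0.438 and 3.82 ± 0.422, adjusted p = 3.4e-04, 1.2e-04 and 4.8e-04), were below those of Ifit1 in each group, from a PBS level that was higher per kb.

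Ifit1bl1 stayed the least abundant member. It was 37.6 and 35.8 CPM after exoCDN2, 11.5 and 9.67 after CDN2 (20 µg) and 9.93 and 16.1 after CDN2 (100 µg), so that both exoCDN2 tumors were above all 4 tumors given free CDN2. Its folds over PBS were 34.5, 9.99 and 12.3 (adjusted p = 0.0019, 0.017 and 0.015). These calls were the weakest of the family. Leaving out any 1 of the 4 tumors of the CDN2 (20 µg) comparison gave an adjusted p of 0.055 to 0.18, leaving out either PBS tumor or CDN2 (100 µg) tumor 2 gave 0.09 to 0.18 for CDN2 (100 µg), and leaving out either PBS tumor gave 0.05 and 0.052 for exoCDN2. The log2 fold changes stayed above 3 in all these cases.

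**Figure D1:**
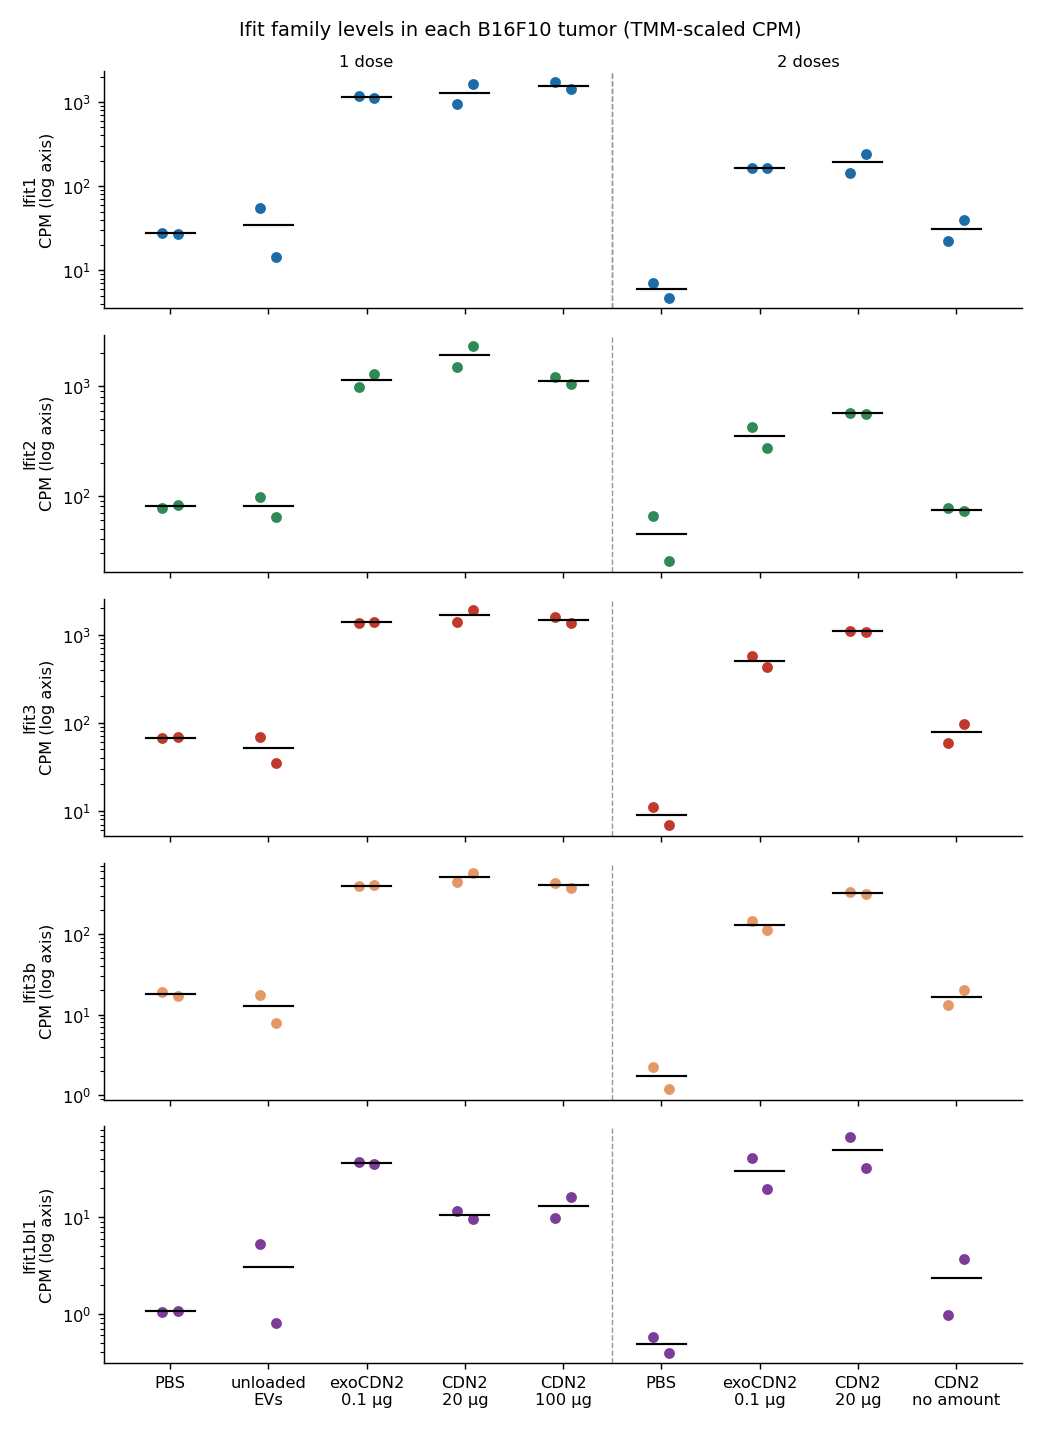
Level of each member (TMM-scaled CPM, log axis) in all 18 tumors, 1 panel a gene. Points are tumors and the short line is the mean of the 2 tumors of a group. The 3 CDN2-containing 1-dose groups stand together above PBS and unloaded EVs in all panels, Ifit1 and Ifit2 are lower after 2 doses of exoCDN2 or CDN2 (20 µg) than after 1, and the 2-dose PBS tumors are the lowest pair for every member but Ifit2.

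The count of 5 called higher of 5 stood against 2.20% of all tested genes called higher with exoCDN2 (0.425% lower), 2.26% with CDN2 (20 µg) (0.886% lower) and 1.82% with CDN2 (100 µg) (0.620% lower). These comparisons share the same 2 PBS tumors. Against unloaded EVs, which carry the vesicle without the agonist, exoCDN2 again had 5 of 5 members higher, against 2.52% of genes called higher and 0.425% lower. Ifit1 was 32.9-fold higher in that comparison (adjusted p = 2.4e-04), Ifit1bl1 12.1-fold (0.0099), Ifit2 14-fold (2.5e-04), Ifit3 26.5-fold (1.1e-05) and Ifit3b 31.1-fold (1.4e-05). All 5 calls held without either tumor of either group, but their size rested on the EV tumors, which differed from each other. Without EV tumor 1 the log2 fold change of Ifit1 went from 5.04 to 6.33, that of Ifit1bl1 from 3.59 to 5.51 and that of Ifit3b from 4.96 to 5.66. Without EV tumor 2 Ifit1 was at 4.37 and Ifit1bl1 at 2.81.

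**Figure D2:**
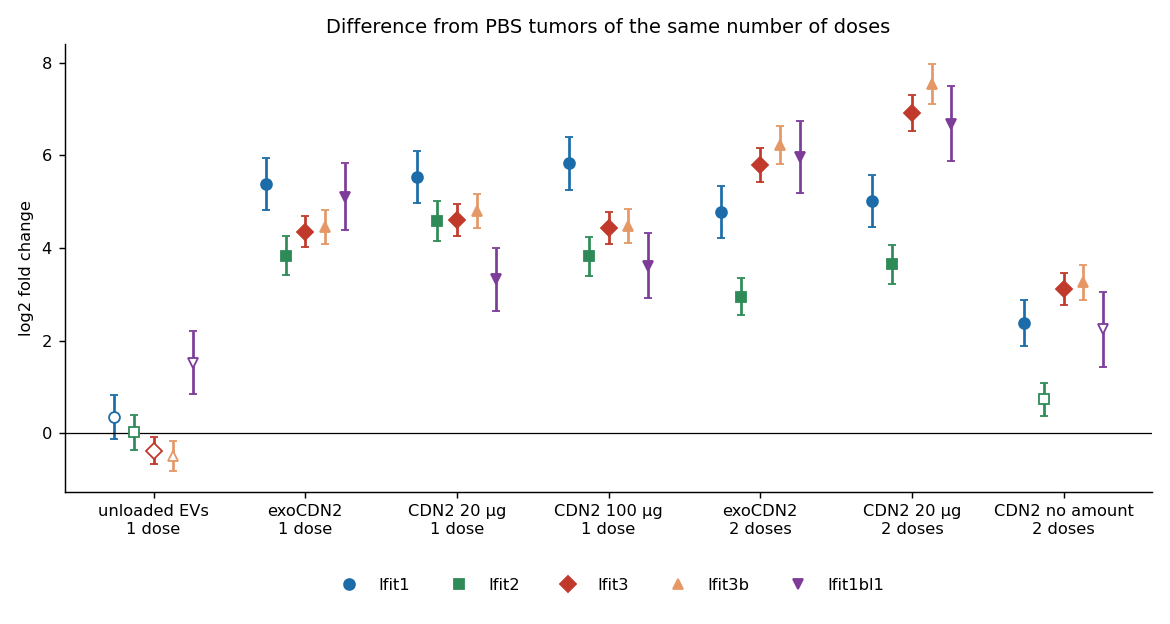
Log2 fold change of each member against PBS of the same number of doses, from edgeR. Bars are SEs, filled symbols are called changes and open symbols are not. All 5 members are filled in each 1-dose group with CDN2 and in both 2-dose groups with a labelled amount, none with unloaded EVs, and 3 in the CDN2 group without a labelled amount.

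Other genes of the pathway were described from a list of 25 IFN-induced antiviral genes outside the family. Of these, 22 rose with exoCDN2 (median log2 fold change 2.73, all genes -0.02), 22 with CDN2 (20 µg) (median 2.58, all genes 0.00) and 19 with CDN2 (100 µg) (median 1.86), and 0 fell. The members with the smallest p were Usp18, the protease that removes ISG15 and dampens IFN receptor signaling (log2 fold change 4.16 with exoCDN2 and 3.87 with CDN2 (20 µg)), Cmpk2, a mitochondrial nucleotide kinase (4.53 and 5.0), Trim25, an E3 ligase of the RIG-I pathway (2.19 with exoCDN2), and Oasl2, of the oligoadenylate synthetase family (2.91 with CDN2 (20 µg)). With CDN2 (100 µg) the corresponding genes were Usp18 (3.39), the GTPase Mx2 (4.99) and the ubiquitin-like Isg15 (3.41). With unloaded EVs 0 of the 25 were called (11 at an unadjusted p under 0.05, 1 by DESeq2), and the median was -0.49.

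Of 17 genes of STING and type I IFN signaling, 7 rose in each of the 3 groups, and these were Cgas, Irf7, Ifnb1, Stat2, Irf9, Irf1 and Socs1. Stat2 and Irf9, which encode subunits of ISGF3, rose by log2 2.47 and 1.36 with exoCDN2, 2.21 and 1.23 with CDN2 (20 µg) and 2.31 and 1.17 with CDN2 (100 µg). Irf1 rose by 2.76, 3.03 and 2.43 on the same scale. Ifnb1, which encodes IFN-β, had 6 counts in each PBS tumor, 12 and 3 with unloaded EVs, 1206 and 866 with exoCDN2, 560 and 1963 with CDN2 (20 µg) and 1649 and 1472 with CDN2 (100 µg). It was thus nearly silent in the groups where the Ifit genes were low and high where they were high. Of 19 genes of cap methylation and eIF3, 0 were called with CDN2 in any form after 1 dose. Among all tested genes at most 2.26% were called higher and 0.886% lower in these groups, so 0 of 19 is near that share. At an unadjusted p under 0.05 in edgeR the list had 2 with exoCDN2, 1 with CDN2 (20 µg) and 0 with CDN2 (100 µg). DESeq2 called 0 in each.

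Markers of other cells are given beside these levels, since the RNA came from whole tumors. The 8 markers of macrophages and monocytes summed to 149 and 137 CPM with exoCDN2 and 104 and 194 with CDN2 (20 µg), against 126 and 156 with PBS, and 0 of 8 were called in either comparison. The 6 neutrophil markers summed to 64.0 and 38.8 CPM with exoCDN2 and 13.5 and 31.5 with CDN2 (20 µg), against 4.48 and 4.73 with PBS, with 3 and 2 called higher. With CDN2 (100 µg) the macrophage and monocyte markers summed to 137 and 142 CPM (1 of 8 lower) and the neutrophil markers to 14 and 17.1 (0 of 6 called). T cell markers summed to 1.39 and 1.43 CPM there against 7.18 and 9.15 with PBS, with 3 of 6 lower. They summed to 2.3 and 3.27 CPM with exoCDN2 and to 5.1 and 9.83 with CDN2 (20 µg), with 0 of 6 called in either. Endothelial markers summed to 29.9 and 30.4 CPM with CDN2 (20 µg) against 80.4 and 83.7 with PBS, with 4 of 5 lower. None of these markers was at 0 in both tumors of any of these groups, and the part of these cells in the Ifit levels was not tested.

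The vesicle-borne and the free agonist were given at different amounts, 0.1 µg and 20 µg. With 1 dose 0 of 5 members were called between them (0.201% of genes higher and 0.408% lower with exoCDN2). The log2 differences, exoCDN2 relative to CDN2 (20 µg), were -0.15 ± 0.466 for Ifit1, -0.75 ± 0.379 for Ifit2, -0.27 ± 0.293 for Ifit3 and -0.34 ± 0.315 for Ifit3b. Only Ifit1bl1 pointed the other way, at 1.79 ± 0.610. It had an unadjusted p of 0.013 and an adjusted p of 0.14 in edgeR, while it was called by DESeq2 (adjusted p = 0.038), by edgeR with only these 4 tumors fitted (0.029) and by edgeR without the filter on low counts (2.1e-10). Of the 25 antiviral genes 0 were called (8 at an unadjusted p under 0.05, 1 by DESeq2).

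Between the 2 amounts of free CDN2, 0 of 5 members were called, with 0.230% of genes higher and 0.224% lower at 100 µg. None had an unadjusted p under 0.05 and DESeq2 called 0. The log2 differences were 0.30 ± 0.467 for Ifit1, 0.30 ± 0.599 for Ifit1bl1, -0.76 ± 0.379 for Ifit2, -0.18 ± 0.293 for Ifit3 and -0.32 ± 0.315 for Ifit3b. For Ifit2 and Ifit3b both tumors at 100 µg were below both at 20 µg. With 2 tumors a group that order alone cannot bring an exact permutation p below 0.333. The share of all genes with such an order was not counted. One antiviral gene, Bst2 or tetherin, was lower at 100 µg (log2 -1.34, adjusted p = 0.048). DESeq2 called 5 of the 25, and 13 had an unadjusted p under 0.05 in edgeR. The log2 difference was below 0 in 21 of 25, with a median of -0.52 against 0.01 for all genes. Of 5 endothelial markers 4 were higher at 100 µg.

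After 2 doses all 5 members were again above PBS, from other levels on both sides of the comparison. Ifit3 was 567 and 431 CPM with exoCDN2 and 1110 and 1060 with CDN2 (20 µg), and 11 and 6.90 with PBS. That was 55.5-fold (log2 5.80 ± 0.363, adjusted p = 1.7e-06) and 121-fold (6.92 ± 0.382, adjusted p = 6.1e-07) above PBS. Ifit3b was 146 and 113 CPM, 336 and 312, and 2.27 and 1.2 with PBS, or 74.4-fold and 187-fold higher (adjusted p = 2.3e-06 and 6.7e-07). Every treated tumor was above every PBS tumor, and for both genes the CDN2 (20 µg) pair was the higher one.

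Ifit1 was 164 and 163 CPM after 2 doses of exoCDN2 and 145 and 238 after CDN2 (20 µg), and 7.16 and 4.75 with PBS. The 2 treated groups overlapped. Their folds over PBS were 27.4 (adjusted p = 1.6e-04) and 32.2 (6.6e-05). Ifit2 was 423 and 275, 576 and 555, and 64.9 and 25.2 CPM with PBS, or 7.74-fold and 12.6-fold higher (adjusted p = 5.0e-04 and 7.5e-05), the smallest folds of the family. Ifit1bl1 was 41.4 and 19.7, 67.9 and 32.8, and 0.572 and 0.394 CPM with PBS, or 62.6-fold and 103-fold higher (adjusted p = 3.5e-04 and 9.3e-05). In Ifit1bl1 the tumors of each treated group differed from one another by more than the 2 group means did.

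All 10 of these calls held when any 1 tumor was left out, CDN2 (20 µg) 2-dose tumor 1 included. Without PBS 2-dose tumor 1 the log2 fold change of Ifit2 went from 2.95 to 3.79 with exoCDN2 and from 3.65 to 4.5 with CDN2 (20 µg). That of Ifit1bl1 went from 5.97 to 5.33 without exoCDN2 2-dose tumor 1, and from 6.69 to 6.08 without CDN2 (20 µg) 2-dose tumor 1. The background was larger than after 1 dose. With CDN2 (20 µg) 20.0% of all tested genes were called higher and 10.6% lower, and with exoCDN2 8.87% and 2.48%, so that 5 of 5 is less set apart from the rest of the genome there. All 25 antiviral genes rose in both comparisons, with medians of log2 5.24 for CDN2 (20 µg) and 4.66 for exoCDN2 against 0.00 and 0.01 for all genes. The smallest p were those of Oasl2 (5.99 and 5.78), Usp18 (6.57 and 5.62) and Isg15 (7.62 and 5.61). Of the signaling list 8 of 17 rose with CDN2 (20 µg) and 6 of 17 with exoCDN2, led by Irf9 (2.49 and 2.26), Irf7, the regulator of later IFN genes (6.51 and 5.77), and Stat2 (3.02 and 3.45). Ifnb1 had 185 and 40 counts with CDN2 (20 µg), 7 and 3 with exoCDN2 and 0 and 0 with PBS, so in the 2-dose exoCDN2 tumors the Ifit genes were high with few Ifnb1 counts. Of the cap and eIF3 list, Eif3k rose (1.04) and the cap methyltransferase Cmtr2 fell by 1.22 with CDN2 (20 µg), and 0 of 19 were called with exoCDN2 (4 at an unadjusted p under 0.05, 0 by DESeq2).

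Cell type markers also differed more after 2 doses. Macrophage and monocyte markers summed to 617 and 379 CPM with exoCDN2 and 1038 and 405 with CDN2 (20 µg), against 104 and 74.8 with PBS, with 6 of 8 called higher in both. Neutrophil markers summed to 60.3 and 17.8, 870 and 198, and 1.98 and 1.55 with PBS (5 and 6 of 6 higher), and T cell markers to 31.4 and 24.9 with exoCDN2, 6.95 and 7.69 with CDN2 (20 µg) and 1.98 and 1.01 with PBS. Of the 7 melanocyte markers 4 were lower with CDN2 (20 µg) and 0 with exoCDN2. None of these markers was at 0 in both tumors of either treated group, and their part in the Ifit levels was not tested.

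Directly compared, exoCDN2 was below CDN2 (20 µg) after 2 doses in 2 of 5 members, with 12.0% of genes lower and 7.34% higher. These were Ifit3 (2.18-fold lower, log2 -1.13 ± 0.297, adjusted p = 0.014) and Ifit3b (2.51-fold lower, -1.33 ± 0.321, adjusted p = 0.0095), near-identical genes that are not independent of each other. The log2 differences of Ifit1 (-0.23 ± 0.468), Ifit2 (-0.70 ± 0.379) and Ifit1bl1 (-0.73 ± 0.591) were not called. Both calls were lost without exoCDN2 2-dose tumor 2 (adjusted p = 0.11 for Ifit3 and 0.08 for Ifit3b) and when only these 4 tumors were fitted (0.14 for both). Of the antiviral list 6 of 25 were lower with exoCDN2, among them Isg15 (-2.0), Rtp4, a receptor-transporting protein induced by IFN (-1.13), and Cmpk2 (-1.28). In the signaling list Ifnb1 was lower with exoCDN2, and in the cap and eIF3 list Eif3k was lower (-1.16) and Eif3a higher (1.27). Of the markers, 5 of 6 for neutrophils and 3 of 4 for skeletal muscle were lower with exoCDN2, and 3 of 6 for T cells and 2 of 7 for melanocytes were higher.

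PBS tumors themselves differed between 1 and 2 doses. Ifit3 fell from 66.4 and 69.2 CPM to 11 and 6.90, a 7.55-fold difference (log2 -2.92 ± 0.320, adjusted p = 5.6e-04), and Ifit3b from 19 and 17.2 to 2.27 and 1.2, or 10.4-fold (-3.37 ± 0.368, adjusted p = 5.5e-04). Ifit1 was 27.9 and 27.4 CPM, then 7.16 and 4.75, which did not pass (-2.21 ± 0.502, adjusted p = 0.064 in edgeR). It was called by DESeq2 (0.00027) and by edgeR with all 18 tumors fitted (0.047), with only the PBS tumors fitted (0.018) and without the filter on low counts (2.6e-27). Ifit2 (-0.83) and Ifit1bl1 (-1.12) were not called. Without PBS 2-dose tumor 1 Ifit2 was at -1.67, and without the filter edgeR called Ifit1bl1 (adjusted p = 0.012). For all 5 genes both later tumors were below both earlier ones. With 2 tumors a group that order alone cannot bring an exact permutation p below 0.333, and the share of all genes with it was not counted. By the rule for calls 2 of 5 members were lower, where 1.05% of genes were lower and 0.0473% higher. Both calls held without any 1 tumor. The antiviral list moved the same way, with 20 of 25 lower (median -2.08, all genes 0.01), led by Oasl2 (-2.92), Usp18 (-2.51) and Isg15 (-2.82), as did Irf9 (-1.13), Irf1 (-2.84) and Irf7 (-2.05) among 6 of 17 signaling genes that fell. Macrophage and monocyte markers summed to 126 and 156 CPM before and 104 and 74.8 after, and T cell markers to 7.18 and 9.15, then 1.98 and 1.01. Keratinocyte markers summed to 115 and 61.8 CPM after 1 dose and 0.429 and 0.0438 after 2, with 0 of 4 called, and the part of these cells in the Ifit levels was not tested. The number of doses and the day of collection cannot be told apart in these tumors.

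With the agonist, members moved in different directions between 1 and 2 doses. Ifit1 was lower after 2 doses, 6.64-fold with CDN2 (20 µg) (log2 -2.73 ± 0.498, adjusted p = 0.0022) and 7.03-fold with exoCDN2 (-2.81 ± 0.499, adjusted p = 0.0054). Ifit2 was lower by 3.37-fold (adjusted p = 0.0055) and 3.27-fold (adjusted p = 0.016). Ifit3 and Ifit3b were lower with exoCDN2 (log2 -1.47 and -1.62, adjusted p = 0.0098 and 0.0089), whereas with CDN2 (20 µg) their differences of -0.61 and -0.63 were not called (adjusted p = 0.12 and 0.14). Ifit1bl1 alone rose with CDN2 (20 µg), 4.76-fold (log2 2.25 ± 0.620, adjusted p = 0.016), and was not called with exoCDN2 (-0.27 ± 0.587). Cell type markers moved between the same tumors. With CDN2 (20 µg) 6 of 6 neutrophil, 5 of 5 endothelial, 5 of 8 macrophage and monocyte, 3 of 5 fibroblast and 3 of 4 skeletal muscle markers were higher after 2 doses and 3 of 7 melanocyte markers lower. With exoCDN2 5 of 6 T cell markers were higher, as were 4 of 8 macrophage and monocyte markers, of which 1 was lower. The part of these cells in the differences was not tested.

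With CDN2 (20 µg) this made 1 of 5 members higher and 2 of 5 lower, against 14.4% and 6.36% of all genes. With exoCDN2 it made 0 higher and 4 of 5 lower, against 5.10% and 2.34%. The Ifit1 and Ifit2 calls with CDN2 (20 µg) held without any 1 tumor, while that of Ifit1bl1 was lost without either 1-dose CDN2 (20 µg) tumor or 2-dose tumor 1 (adjusted p = 0.081, 0.084 and 0.09, the last with a log2 difference of 1.63). The exoCDN2 calls were less firm. Without any 1 of its 4 tumors at most 1 of them, that of Ifit1, remained, with adjusted p of 0.051 to 0.094 for those lost. The antiviral list was split in both cases, with 6 higher and 5 lower with CDN2 (20 µg) and 4 higher and 9 lower with exoCDN2. In both, Mx1, Mx2, Rsad2, Cmpk2 and Ifih1 fell, while Oas3, Bst2 and Ifitm3 rose. Mx1 fell by log2 1.90 with CDN2 (20 µg) and by 2.36 with exoCDN2, less than Ifit1 in both, and Oas3 rose by 2.39 and 2.19.

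**Figure D3:**
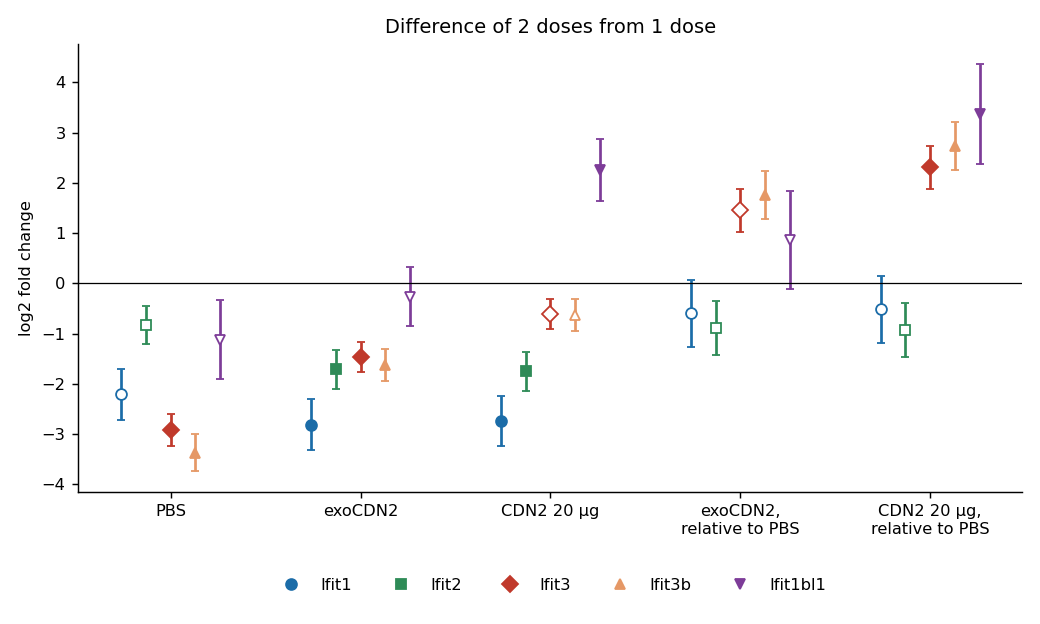
Log2 change of each member from 1 to 2 doses in PBS, exoCDN2 and CDN2 (20 µg) tumors, and the change of each effect relative to PBS. Bars are SEs, filled symbols are called changes and open symbols are not. Ifit1 and Ifit2 lie below 0 in PBS and in both treated groups, and relative to PBS Ifit3, Ifit3b and Ifit1bl1 lie above 0.

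Set against PBS of the same number of doses, the effect of CDN2 (20 µg) grew from the first to the second dose for Ifit3 (log2 change of the effect 2.31 ± 0.424, adjusted p = 0.0050), Ifit3b (2.74 ± 0.476, adjusted p = 0.0041) and Ifit1bl1 (3.37 ± 0.988, adjusted p = 0.032). For Ifit1 (-0.52) and Ifit2 (-0.92) it was not called, although Ifit2 was called lower without PBS 2-dose tumor 2 (-1.45, adjusted p = 0.044). That is 3 of 5 members higher, where 11.7% of genes were higher and 5.16% lower. For Ifit3 and Ifit3b the growth is arithmetically the fall in PBS less the smaller, uncalled decline in the treated tumors. When all 4 PBS tumors were pooled as 1 control, it became the direct difference of -0.61 and -0.63, neither called, while Ifit1 (-2.73, adjusted p = 0.019) and Ifit2 (-1.75, adjusted p = 0.011) were then called lower. The calls for Ifit3 and Ifit3b held without any 1 of the 8 tumors, and that for Ifit1bl1 was lost in 7 of the 8 cases (adjusted p = 0.068 to 0.095), every tumor but CDN2 (20 µg) 2-dose tumor 2. Without 2-dose tumor 1 of that group its value was 2.75.

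With exoCDN2 Ifit3b itself was lower after 2 doses than after 1 (log2 -1.62), by less than in PBS (-3.37). Set against PBS in the same way, it was the only member called, 1 of 5 (1.76 ± 0.472, adjusted p = 0.042). Of all genes 5.12% were higher and 1.70% lower. Ifit3 was at 1.45 (adjusted p = 0.057, and 0.039 without PBS 2-dose tumor 1), Ifit1bl1 at 0.86, Ifit1 at -0.60 and Ifit2 at -0.88. The Ifit3b call was lost without either exoCDN2 1-dose tumor, either PBS 1-dose tumor, exoCDN2 2-dose tumor 1 or PBS 2-dose tumor 2 (adjusted p = 0.1 to 0.17), and when the counts of Ifit3 and Ifit3b were summed (adjusted p = 0.054). The difference between the agonists in their change from 1 to 2 doses was called for 0 of 5 members, with 2.97% of genes higher and 5.34% lower. Ifit1bl1 had the lowest p of these (log2 -2.52 ± 0.848 for exoCDN2 less CDN2 (20 µg), adjusted p = 0.076 in edgeR), 2 members had an unadjusted p under 0.05 and DESeq2 called 1. Ifit1bl1 was the member called by DESeq2 (0.019), and edgeR called it without the filter on low counts (1.2e-10) and without CDN2 (20 µg) 2-dose tumor 2 (0.016). Relative to PBS, the antiviral list had 16 of 25 genes with a larger effect of CDN2 (20 µg) after 2 doses. For exoCDN2 it had 15 of 25, against 11.7% and 5.12% of all genes. In PBS itself 20 of the 25 were lower after 2 doses than after 1. In the treated tumors the direct differences of 2 doses from 1 were split in direction, as given above.

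The 2 tumors labelled as 2 doses of CDN2 with no amount lay between PBS and CDN2 (20 µg). Ifit3 was 58.5 and 96.7 CPM in them, Ifit3b 13.3 and 20.2, and Ifit1 22.4 and 39.8. Against 2-dose PBS these were 8.64-fold (adjusted p = 3.4e-04), 9.61-fold (3.7e-04) and 5.21-fold (0.039) higher, 3 of 5 members, with 0.918% of genes higher and 0.0409% lower. Ifit2, at 77.3 and 72.2 CPM, and Ifit1bl1, at 0.964 and 3.70, were not called, although Ifit2 was without PBS 2-dose tumor 1 (adjusted p = 0.043) and Ifit1bl1 was without the filter on low counts (1.7e-09). The Ifit1 call was lost without either PBS 2-dose tumor or tumor 2 of this group (adjusted p = 0.078 to 0.4). All 3 calls were lost when the 4 PBS tumors were pooled. The levels in this group were close to those of PBS after 1 dose. Against CDN2 (20 µg) all 5 members were lower, from 6.16-fold for Ifit1 to 21.8-fold for Ifit1bl1 (adjusted p from 1.9e-05 to 0.0015), with 16.4% of genes lower and 8.76% higher. The log2 difference of Ifit1bl1 there went from -4.45 to -5.70 without tumor 2 of this group and to -3.76 without its tumor 1, the value being nearer 0 also without CDN2 (20 µg) 2-dose tumor 1. In the same comparison 6 of 6 neutrophil, 4 of 4 skeletal muscle and 4 of 8 macrophage and monocyte markers were lower and 4 of 7 melanocyte markers higher. Of the antiviral list 18 of 25 were above PBS and 23 of 25 below CDN2 (20 µg). Ifnb1 had 0 and 2 counts in these tumors.

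The family as a whole made up 0.02% and 0.021% of all counts in 1-dose PBS tumors, 0.412% and 0.437% after exoCDN2 and 0.41% and 0.594% after CDN2 (20 µg). After 2 doses it was 0.009% and 0.004% with PBS, 0.141% and 0.108% with exoCDN2 and 0.185% and 0.212% with CDN2 (20 µg). Its makeup differed as well. Within a tumor, the log2 ratio of Ifit1 to Ifit3 counts per kb was -1.86 and -1.94 after 1 dose of PBS, -0.931 and -1.88 with unloaded EVs, and between -1.19 and -0.487 in the 6 tumors with 1 dose of CDN2 in any form. After 2 doses it was -1.23 and -1.14 with PBS, -2.40 and -2.01 with exoCDN2 and -3.54 and -2.76 with CDN2 (20 µg). The tumors given exoCDN2 or CDN2 (20 µg) were thus above PBS after 1 dose and below it after 2, and unloaded EV tumor 1 lay within the range of the 1-dose tumors with CDN2. The number of Ifit1 counts per Ifit1bl1 count was 26.6 and 25.6 with PBS after 1 dose, 31.3 and 31.3 with exoCDN2, 80.9 and 167 with CDN2 (20 µg), 173 and 87.8 with CDN2 (100 µg) and 10.6 and 17.9 with unloaded EVs. After 2 doses it was 12.5 and 12.1 with PBS, 3.96 and 8.28 with exoCDN2 and 2.13 and 7.24 with CDN2 (20 µg). Free CDN2 tumors thus had the highest of these ratios after 1 dose. The ratios are given as a description, with no test.

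**Figure D4:**
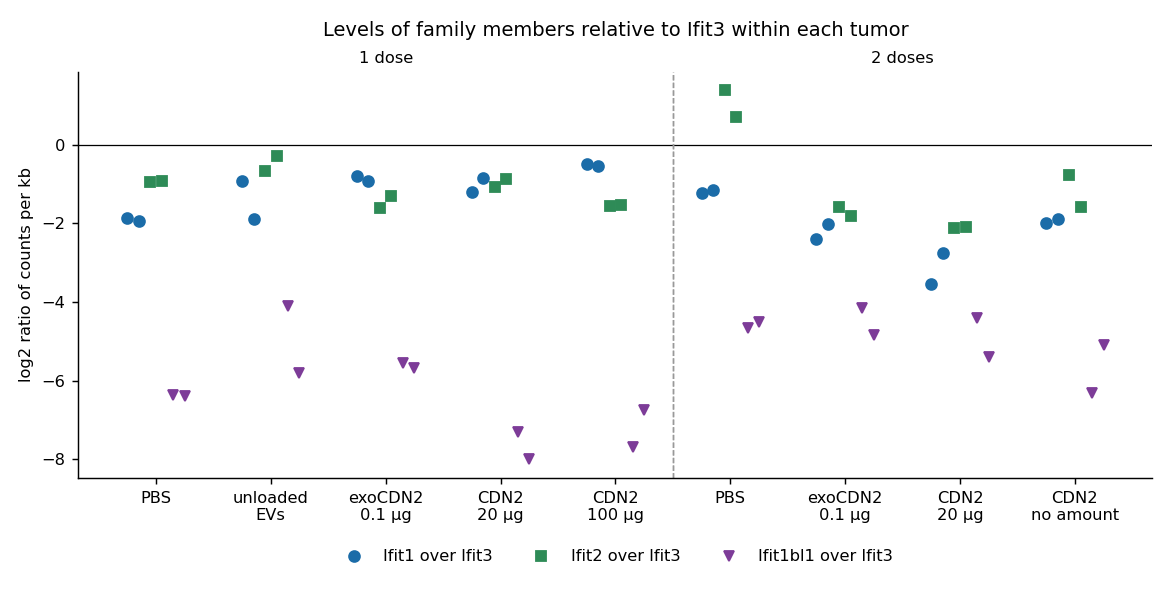
Log2 ratio of the counts per kb of Ifit1, Ifit2 and Ifit1bl1 to those of Ifit3 within each tumor. Each point is 1 tumor, and 0 would be a level equal to that of Ifit3. Ifit2 exceeds Ifit3 only in the 2-dose PBS tumors (1.39 and 0.697), and Ifit1 is lowest relative to Ifit3 after 2 doses of CDN2 (20 µg).

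Ifit3 and Ifit3b cannot be fully separated by short reads. The reads were paired, each of 150 bases, and the shares below count single stretches of that length rather than pairs. Of the stretches of 150 bases in the transcripts, 296 were shared, 18.5% of those of Ifit3 and 16% of those of Ifit3b, and the expected counts of both genes were not whole numbers in 18 of 18 tumors. Those of Ifit2 and Ifit1bl1 were whole in all 18, and those of Ifit1 were not whole in 10. Ifit3b took 14.9% to 24.0% of the counts of the pair over the 18 tumors, with the lowest shares in the 2-dose PBS tumors (17.0% and 14.9%). The root mean square difference of their centred log2 levels over the 16 tumors with a known treatment and amount was 0.20, against 0.83 for Ifit1 and Ifit3 and 1.78 for Ifit1 and Ifit1bl1.

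By the same measure, as a description over those 16 tumors with shared groups, the genes outside the family most like Ifit1 were Mx1 (0.47), Cxcl10 (0.57), Mx2 (0.59), Rsad2 (0.63) and Cmpk2 (0.73). For Ifit2 these were Oas1b (0.44), Ifih1 (0.51), Has2 (0.56), Tnf (0.57) and Tnfsf15 (0.58). For Ifit3 they were Rsad2 (0.44), Oasl1 (0.47), Cxcl10 (0.48), Usp18 (0.49) and Gbp5 (0.53). Rsad2, which encodes the antiviral enzyme viperin, and Cxcl10, a chemokine that draws T cells, were near both Ifit1 and Ifit3, while the 5 genes near Ifit2 were in neither of those lists. For scale, a gene that did not vary at all would stand at 2.83 from Ifit1, 1.98 from Ifit2 and 2.69 from Ifit3.

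**Figure D5:**
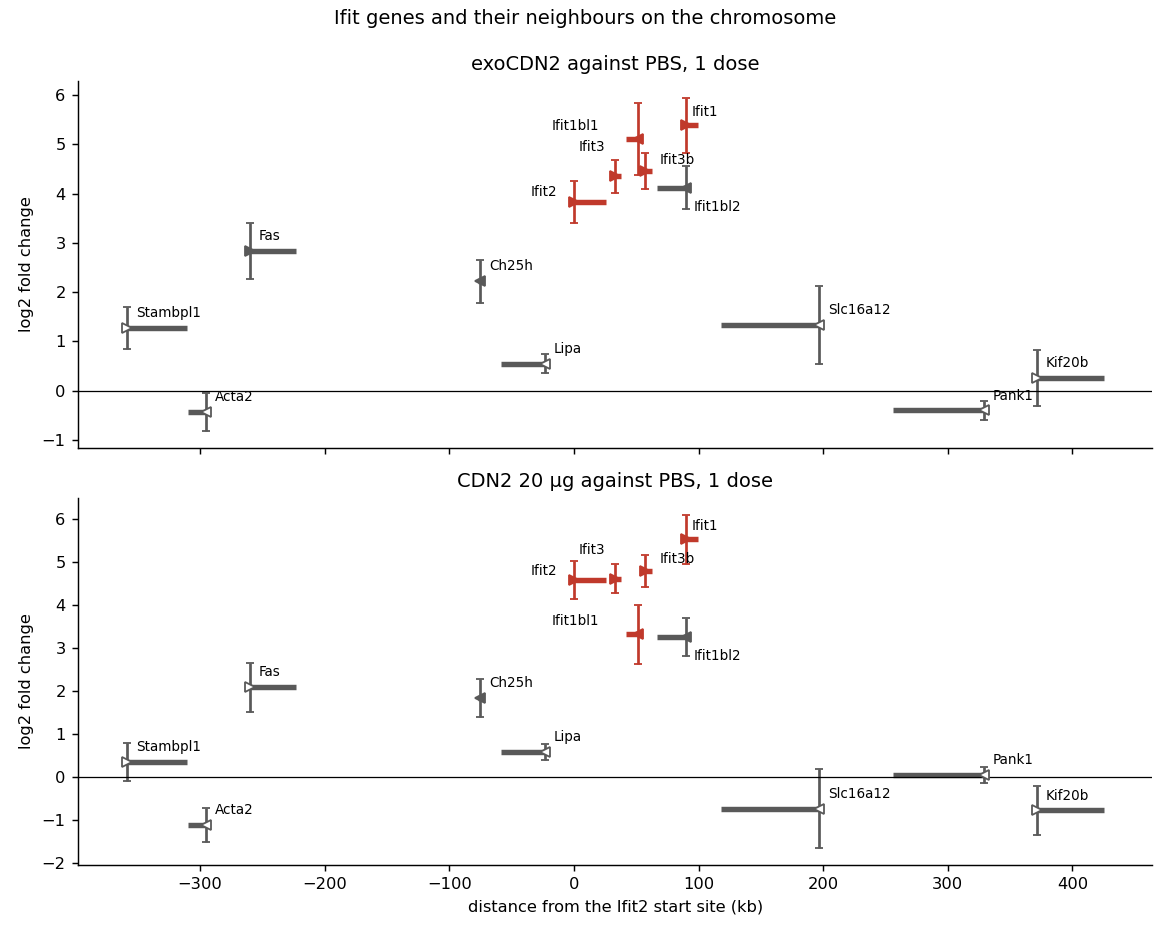
Log2 fold change against PBS after 1 dose of exoCDN2 and of CDN2 (20 µg) for the Ifit genes and their neighbours, by distance from the Ifit2 start site in kb. Horizontal bars span the genes (members in red, neighbours in grey), triangles point along the strand from the start site, vertical bars are SEs, and filled symbols are called changes. The 5 members and Ifit1bl2 stand between 3.26 and 5.53 inside the 99.3 kb, above every gene outside it.

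After 1 dose the genes outside the cluster moved less than its members, while Ifit1bl2, inside it, lay within or just below the range of the members. Ifit1bl2, which starts 128 bases from Ifit1 on the other strand and shares the 2 ISRE matches of the Ifit1 window, rose by log2 4.12 with exoCDN2 and 3.26 with CDN2 (20 µg) after 1 dose. It shares 31 stretches of 150 bases with Ifit1, and whether the counting used strand is not given in the sources used here. On the side of Ifit2, Ch25h, an IFN-induced enzyme that makes 25-hydroxycholesterol, rose by 2.22 and 1.84, and Fas, a death receptor, by 2.83 with exoCDN2, while its 2.09 with CDN2 (20 µg) was not called. Lipa (0.55 and 0.59), Acta2 (-0.43 and -1.11) and Stambpl1 (1.28 and 0.35) were not called. Nor were Slc16a12 (1.33 and -0.73), Pank1 (-0.40 and 0.06) and Kif20b (0.26 and -0.77) on the side of Ifit1. With CDN2 (100 µg) Ifit1bl2 (3.31) and Lipa (1.12, adjusted p = 0.0085) were called, and Ch25h (1.72) and Fas (1.71) were not. After 2 doses Ifit1bl2 rose by log2 7.2 with exoCDN2 and 8.91 with CDN2 (20 µg), more than any member. The size of both values rests on a baseline at the floor, with 2 and 0 counts in the 2-dose PBS tumors. Its levels were 4.19 and 2.86 CPM with exoCDN2 and 14.6 and 8.49 with CDN2 (20 µg). Fas (2.64 and 4.55), Ch25h (2.91 and 3.37) and Stambpl1 (1.99 and 3.09) also rose in both, and of these Fas with CDN2 (20 µg) exceeded the 3.65 of Ifit2. In the 2-dose CDN2 (20 µg) tumors Acta2 rose as well (1.12, adjusted p = 0.034 in edgeR). On the side of Ifit1, Slc16a12 fell by 2.23 (adjusted p = 0.047 in edgeR), Pank1 by 1.11 and Kif20b by 1.98. Thus 8 of the 9 neighbours were called there, 5 higher and 3 lower, where 20.0% of all tested genes were higher and 10.6% lower. DESeq2 called 7. Acta2 was 37.2 CPM in tumor 1 and 14.6 in tumor 2, against at most 12.8 with PBS. Slc16a12 had 5 and 3 counts, against 53 and 19 with PBS.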

How the data were processed

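RNA from whole B16F10 tumors was measured in 9 groups of 2 tumors. The authors' reads were quality filtered and mapped to GRCm38 (mm10) by OSA in OmicSoft ArraySuite, and RSEM then gave expected counts over Ensembl R88 genes. The authors deposited these expected counts for each tumor without normalization. Between 8.75% and 12.68% of the values were not whole, and totals lay between 21608895 and 65983630. RSEM divides reads that several genes share, so the values of close paralogs depend on that estimate. The paper gives the sequencing as paired reads of 150 bases. The strand setting of the counting is not given in the sources used here. Intervals and SEs do not cover the division of shared reads.

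After rounding, edgeR 4.0.16 (R 4.3.3) was used. Genes with at least 10 counts in 2 tumors and 15 in all were kept. TMM factors were applied, and a quasi-likelihood model with a mean for each group took in the 16 tumors of the 8 groups with a known treatment and amount (16927 genes). A model of all 18 tumors (17110 genes) served the 2 comparisons of the group without an amount. The Benjamini-Hochberg adjustment of p-values ran over every gene tested. Calls needed an adjusted p below 0.05 together with a ratio above 2. These are the study's own limits, although it used DESeq2. The common biological coefficient of variation was 0.22, with 8 residual degrees of freedom. What is given as an SE was derived from the quasi-likelihood test. It is the size of the log2 fold change divided by the square root of the F statistic. With 2 tumors against 2 alone, an exact permutation test could not go below a two-sided p of 0.333, so every call leans on the spread shared over groups and genes. The study describes the 2 tumors of a group as biological replicates that stand for a larger set of samples not used here, and the p-values measure only the spread between these tumors.

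Gene limits, exon lengths and symbols came from GENCODE M21, which gave a symbol to 50376 of 50600 genes. Promoter sequences came from RefSeq and matched all 5 members. Shared stretches of transcripts were counted at a length of 150 bases. The members, the gene lists (antiviral, signaling, cap and eIF3, neighbours) and the marker lists of 11 cell types came from general knowledge and were chosen with earlier results of these data known. All 5 members were named, and of each list the 3 called genes with the smallest p and those called in the opposite direction, with all neighbours. Other genes named from a list were chosen after their values were seen. The values of 1 gene of the signaling list are not reported here. Likeness was the root mean square difference of centred log2 CPM (0.1 CPM added) over 16 tumors. The model was tested on simulated data with these library sizes. Alternatives were DESeq2 1.42.0, RLE factors, no filter on low counts, all 18 tumors, only the groups compared, a replicate block, pooled PBS tumors, summed counts of Ifit3 and Ifit3b, and each tumor left out.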

Additional observations from a re-analysis of the deposited data

Results flagged for a closer look

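The effect of the agonist relative to PBS differed between 1 and 2 doses for 4 pairs of a member and a treatment, each by an interaction term of the edgeR quasi-likelihood model with Benjamini-Hochberg adjustment. With CDN2 (20 µg) the log2 change of the effect was 2.31 ± 0.424 for Ifit3 (adjusted p = 0.0050), 2.74 ± 0.476 for Ifit3b (adjusted p = 0.0041) and 3.37 ± 0.988 for Ifit1bl1 (adjusted p = 0.032). With exoCDN2 it was 1.76 ± 0.472 for Ifit3b (adjusted p = 0.042). Ifit3 and Ifit3b share reads and count as 1 signal rather than 2. In the 2-dose CDN2 (20 µg) tumors, skeletal muscle markers summed to 3367 and 1646 CPM and neutrophil markers to 870 and 198, and the part of either in these values was not tested. The pattern for Ifit3 and Ifit3b comes with PBS levels that were lower after 2 doses by log2 2.92 and 3.37. Their own levels with CDN2 (20 µg) differed by -0.61 and -0.63 between 1 and 2 doses, and that of Ifit3b with exoCDN2 by -1.62.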

How the results depend on the processing

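Of 1051 alternative values for single members, fitted differences and ratios of mean levels together, 949 kept their direction and their side of the threshold, 51 lost a call, 24 gained one and 27 changed direction, and of 217 alternative counts of members 191 stayed within 1.5 times. Every member was called higher against PBS after 2 doses of exoCDN2 and of CDN2 (20 µg) under all alternatives run. Without the filter on low counts the count of members called became 1 for unloaded EVs, 1 for exoCDN2 against CDN2 (20 µg) after 1 dose, 4 for PBS with 2 doses against 1, 2 for the change of the exoCDN2 effect and 1 for the difference between agonists in that change. DESeq2 gave 1, 2 and 1 for exoCDN2 against CDN2 (20 µg) after 1 dose, the change of the exoCDN2 effect and the difference between agonists. Fitting only the groups compared gave 1 for exoCDN2 against CDN2 (20 µg) after 1 dose, 0 for the same after 2 doses and 2 for the change of the exoCDN2 effect. With PBS tumors pooled, the count was 2 for the change of the exoCDN2 effect, which were Ifit1 (-2.81) and Ifit2 (-1.71), both lower, in place of Ifit3b higher, and 0 for the group without an amount against PBS. That fit turned Ifit3 and Ifit3b with unloaded EVs to 0.44 and 0.37. It turned the change of the CDN2 (20 µg) effect to -0.61 and -0.63, and that of the exoCDN2 effect to -1.47 and -1.62, with Ifit1bl1 at -0.27, since for a change of effect pooling leaves only the direct difference of 2 doses and 1. For Ifit2 in the difference between agonists, DESeq2 and RLE factors gave -0.03 each.

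With 1 tumor left out, the count of members called was 0 to 2 for exoCDN2 against CDN2 (20 µg) after 2 doses, 0 to 1 for exoCDN2 with 2 doses against 1, 0 to 2 for the change of the exoCDN2 effect and 0 to 1 for the difference between agonists. Values that crossed 0 were, with unloaded EVs, Ifit1 (-0.95 to 1.00), Ifit1bl1 (-0.40 to 2.30), Ifit2 (-0.33 to 0.29) and Ifit3 (-0.97 to 0.03). Between exoCDN2 and CDN2 (20 µg), Ifit1 crossed it after 1 dose (-0.47 to 0.30) and after 2 (-0.56 to 0.16). Between amounts of CDN2 it was crossed by Ifit1 (-0.05 to 0.75), Ifit1bl1 (-0.09 to 0.61) and Ifit3 (-0.39 to 0.06), for exoCDN2 with 2 doses against 1 by Ifit1bl1 (-0.90 to 0.17), and in the difference between agonists by Ifit1 (-0.53 to 0.29) and Ifit2 (-0.31 to 0.32). None of these was a called value. A tumor left alone in its group was assumed to vary like the other groups.

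Tumors of different groups share a number in the labels but nothing ties them together. The deviations of 36 pairs of same-numbered groups from their group means correlated at 0.016 on average (-0.177 to 0.304), with 7 above 0.1, so the number was not taken as a pairing. With a replicate block, 88 of 90 values for members kept direction and side, Ifit2 with unloaded EVs became -0.01, and Ifit1 in the group without an amount against PBS was 2.39 with an adjusted p of 0.058. RLE factors moved the median of all genes by at most 0.0868 on the log2 scale. The cause of the other changes was not tested.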

Other observations

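Marker lists of further cell types bear on what the tumors held. The 4 NK cell markers summed to 14.6 and 9.98 CPM in 2-dose exoCDN2 tumors, against 0.586 to 6.85 in the other 16 tumors. B cell markers lay between 1.49 and 4.29 CPM and dendritic cell markers between 3.53 and 13.3 in all tumors. After 2 doses 2 of 5 dendritic cell markers tested were lower than PBS with CDN2 (20 µg) and 1 of 5 with exoCDN2. Of all tested genes 10.6% and 2.48% were lower there. Endothelial markers lay between 53.4 and 107 CPM except in the 1-dose CDN2 (20 µg) tumors, which had 29.9 and 30.4. Fibroblast markers reached 1596 and 622 CPM in 2-dose CDN2 (20 µg) tumors and lay between 196 and 716 elsewhere. Keratinocyte markers varied from 0.0266 to 115 CPM, both 1-dose PBS tumors being at 61.8 or above, as were 1 tumor of 2-dose exoCDN2 and no other.

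The ISRE core was in the promoter window of 9 of the 18 antiviral genes that RefSeq lists a window for, in 2 of 15 signaling genes, in 1 of 15 cap and eIF3 genes and in 1 of 9 neighbours, Ifit1bl2. For the Ifit members it was 4 of 5. These are counts of letters, with no test.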
